A study of Mus musculus with 3 samples.

Results

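The genes examined here encode 9 transcription factors that establish and maintain hepatocyte identity, namely Hnf4a, Foxa1, Foxa2, Foxa3, Cebpa, Cebpb, Onecut1, Prox1 and Nr5a2. They were chosen by name out of 22367 protein-coding genes of GENCODE release M1 on the mouse NCBI37/mm9 genome, by a rule that uses no binding value, although earlier results of these data were known when the set was proposed. Each gene was studied within 20 kb of its annotated start and over its body, which together are called its neighbourhood. Liver of male C57BL/6 mice, wild type and 3 months of age, was the source of all chromatin, and the labels name no treatment. There was 1 library precipitated with an anti-RXRα antibody, 1 precipitated with an anti-RARα antibody and 1 of input chromatin. Without replicates, no test between libraries was possible, and all intervals given here are 95% intervals that cover counting error only. Whole liver holds several cell types, so a difference in binding per cell and a difference in the number of bound cells cannot be told apart.

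HNF4α is a nuclear receptor that binds DNA as a homodimer, and LRH-1, the product of Nr5a2, is a nuclear receptor that binds as a monomer. The FOXA proteins are forkhead pioneer factors that bind compacted chromatin, C/EBPα and C/EBPβ are basic leucine zipper factors, HNF6, the product of Onecut1, is a cut-homeodomain factor, and PROX1 is a homeodomain factor that also acts as a corepressor of nuclear receptors. Together they form a network in which the factors bind one another's genes and most hepatocyte genes. RXRα is a dimer partner of RARα and of many other nuclear receptors, and the dimers bind repeats of a hexamer related to AGGTCA.

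The RXRα and input signals corresponded to 9.99994 M and 9.99929 M reads, counted as coverage in bins of 32 bp, and the mean 1 kb of input held 3.77 reads. An RXRα region is a stretch of bins where RXRα coverage reached 20 times the input coverage, local or mean, whichever was larger. A RARα joined peak is a run of deposited peaks no more than 10 bp apart, kept where its highest score was greater than 20. The meaning of the score is not given in the list, and the list gives no read depth. A RARα joined peak and an RXRα region were called co-localized when they overlapped by at least 25% of the narrower of the pair. As a check of the tissue, 8 of 8 hepatocyte marker genes had an RXRα region within 20 kb of their start, compared to 2 of 5 cholangiocyte, 0 of 5 stellate cell, 0 of 4 Kupffer cell and 4 of 5 endothelial cell marker genes. RARα joined peaks lay within 20 kb of 8, 2, 2, 0 and 4 genes of the same lists. Over all protein-coding genes the shares within 20 kb were 50.9% for an RXRα region and 60.5% for a RARα joined peak. The lists are short, and the endothelial list was above these shares as well as the hepatocyte list.

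All 9 genes had both receptors in their neighbourhoods. An RXRα region was present at 9 of 9, compared to 55.7% of all protein-coding genes, and a RARα joined peak at 9 of 9, compared to 64.4%. Co-localized binding was found at 9 of 9, compared to 34.4% of all genes. There were 80 RXRα regions and 61 RARα joined peaks in all, of which 31 were co-localized. The 9 genes had between 3 and 15 RXRα regions each, with a median of 8 compared to 1 over all genes. RARα joined peaks numbered between 3 and 14, with a median of 6 compared to 1. Nr5a2 and Hnf4a, which have the longest bodies (117 and 66.1 kb), were at the top for both kinds, with Cebpb equal to Hnf4a in RXRα regions (13 each). Per 10 kb of neighbourhood, the density of RXRα regions was highest at Cebpb (3.25) and Cebpa (2.50) and lowest at Prox1 (0.726), with medians of 1.51 for the 9 genes and 0.153 for all genes.

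**Figure D1:**
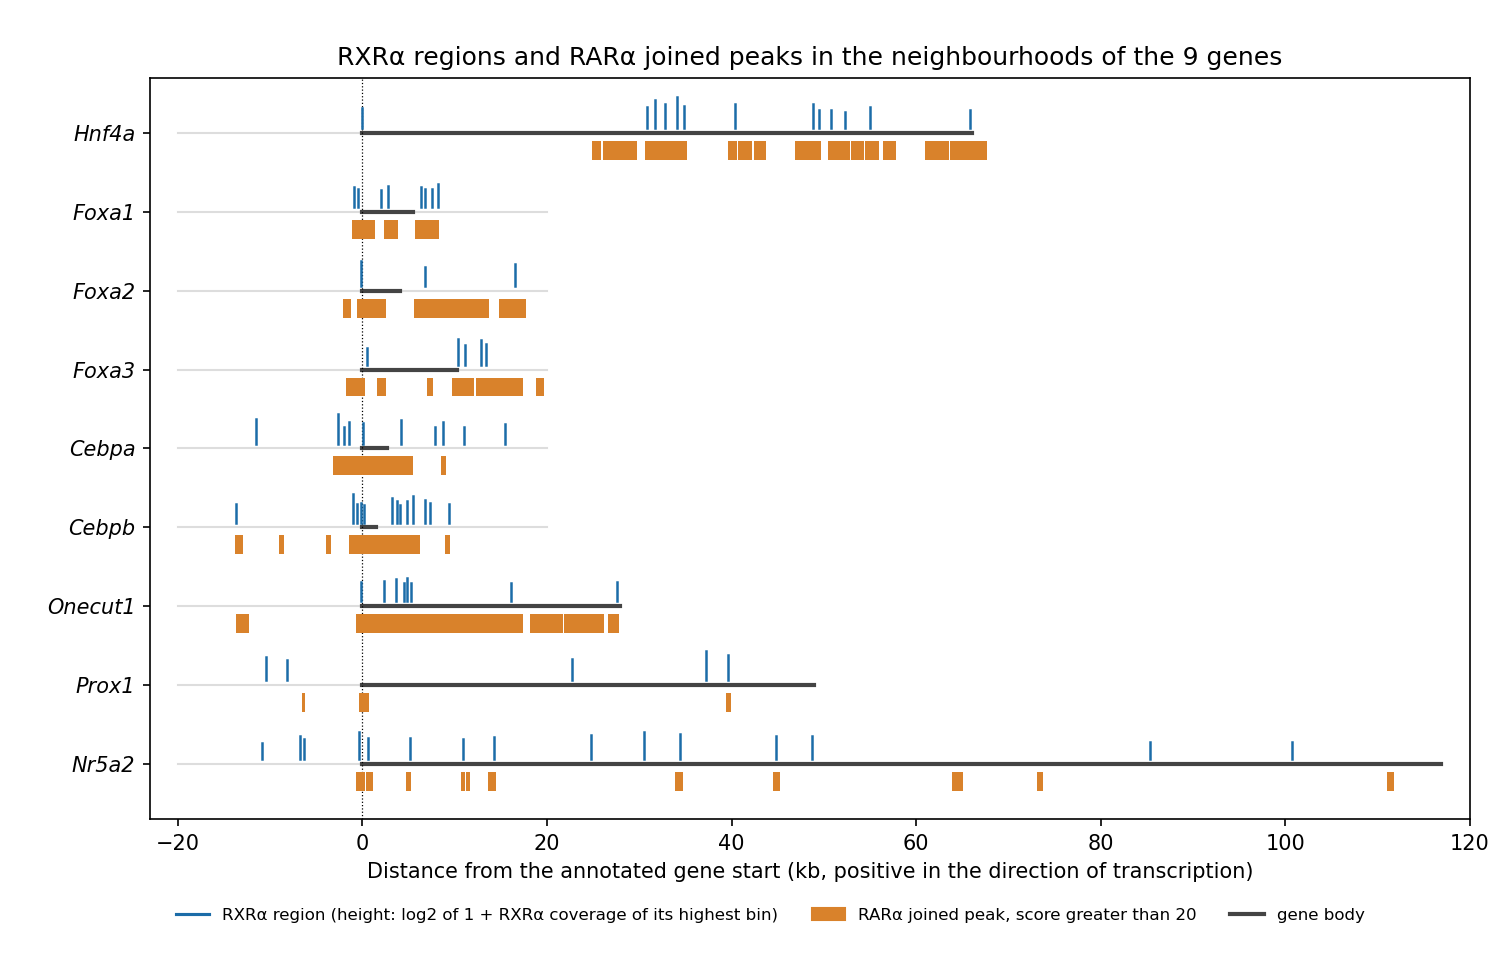
Positions of RXRα regions (blue, height on a log2 scale) and RARα joined peaks (orange) against the distance in kb from the annotated start of each gene, with the gene body in grey. The regions of Hnf4a lie mostly between 30.8 and 54.99 kb, those of Cebpa and Cebpb on both sides of the start, and Onecut1 carries a RARα block of 17.4 kb.

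The breadth of binding was also seen in the reads themselves. Within 20 kb of the start, the 9 genes had between 289 and 1361 RXRα reads, with a median of 831 compared to 167 over all genes. The input reads of the same windows were also high, between 195 and 307, with a median of 270.2 compared to 158, and each of the 9 genes lay above at least 71.0% of all genes in input. The part of the input level in the RXRα counts was not tested. The ratio of RXRα to input reads takes the input into account. It was 4.68 at Cebpa (4.11 to 5.36) and 4.68 at Cebpb (4.12 to 5.33), 3.98 at Onecut1 (3.41 to 4.65), 3.43 at Foxa1 (2.92 to 4.04) and 3.29 at Foxa3 (2.89 to 3.74). Lower ratios were found at Nr5a2 (2.79, 2.44 to 3.19), Foxa2 (2.65, 2.28 to 3.09), Prox1 (1.54, 1.32 to 1.80) and Hnf4a (1.30, 1.08 to 1.55). The median over all genes was 1.07. In this order the intervals of neighbours overlapped, except between Foxa2 and Prox1. Hnf4a came last in this window although its body held the strongest RXRα region of the set, and 12 of its 13 regions were outside the window.

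When the gene body beyond 20 kb was left out, an RXRα region remained at 9 of 9 genes (50.9% of all genes) and a RARα joined peak at 8 of 9 (60.5% of all genes), Hnf4a being the exception. Co-localized binding was then found at 7 of 9 (32.1% of all genes), without Hnf4a and Prox1. At the promoters, taken as 500 bp on each side of the annotated gene start, 8 of 9 genes had an RXRα region (18.3% of all genes) and 8 of 9 a RARα joined peak (40.5% of all genes). The gene without an RXRα region was Prox1, and the gene without a RARα joined peak was Hnf4a. Both receptors were co-localized at 6 of 9 promoters, compared to 17.2% of all genes, the others being Hnf4a, Foxa3 and Prox1. For Hnf4a this window is at the most distal annotated start. Its start 40.4 kb downstream had a RARα score of 96 and a co-localized RXRα region.

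Hnf4a (ENSMUSG00000017950.9, chr2:163332544-163398646, plus strand) is transcribed from alternative promoters, of which the promoter nearer to the coding exons is the main one in adult liver. The gene record starts at the most distal site, and the annotation does not name the promoters. Of its 13 RXRα regions, 12 lay more than 20 kb downstream of that start, and 12 were overlapped by a RARα joined peak. A group of 5 consecutive regions between 30.8 and 34.8 kb lay in an intron under 1 RARα joined peak of 4501 bp (chr2:163363191-163367691, score 72), which held 816 RXRα reads compared to 62.4 input reads. The strongest of them (chr2:163366401-163366816) was 34.1 kb from the start, with 159 RXRα reads over its highest bin compared to 1 of input. In the surrounding 1 kb there were 294 RXRα and 15.8 input reads, a ratio of 18.6 (11.1 to 32.6). The bases around this highest bin, chr2:163366540-163366740 on the plus strand, are shown because no member of the set had higher RXRα coverage in one bin, with a C/EBP match (left) and a nuclear receptor hexamer (right) in capitals.
Hnf4a intron, 34.1 kb: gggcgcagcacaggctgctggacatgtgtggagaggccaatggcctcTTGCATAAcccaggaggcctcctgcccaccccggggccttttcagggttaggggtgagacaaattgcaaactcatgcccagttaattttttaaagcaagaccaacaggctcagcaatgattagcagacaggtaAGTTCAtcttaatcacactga

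The 4 annotated start sites of Hnf4a that are more than 500 bp apart differed in both receptors. At the start of the gene record there were 40 RXRα reads within 500 bp compared to 3.4 of input, a ratio of 11.8 with a wide interval (4.25 to 67.4), and the highest RARα score was 19, just under the threshold. The start 40.4 kb downstream had 93.4 RXRα and 11.2 input reads (ratio 8.34, 4.51 to 17.5). It coincided with the highest RARα score of the gene, 96, and with an RXRα region at chr2:163372865-163372960. The start at 30.2 kb had only 14.2 RXRα reads compared to 10.6 of input (ratio 1.34, 0.537 to 3.10). Its window was touched by the edge of the RARα peak of score 72, whose summit was at 34.9 kb. The start at 43.3 kb had 32.6 RXRα and 10.6 input reads (ratio 3.08, 1.48 to 6.58) and lay in a RARα joined peak of score 27. In the 3′ part of the gene, 6 of the 13 regions were nearer to the start of Ttpal, a neighbouring gene, than to the start of the Hnf4a record. Their assignment follows the gene body and not the distance.

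**Figure D2:**
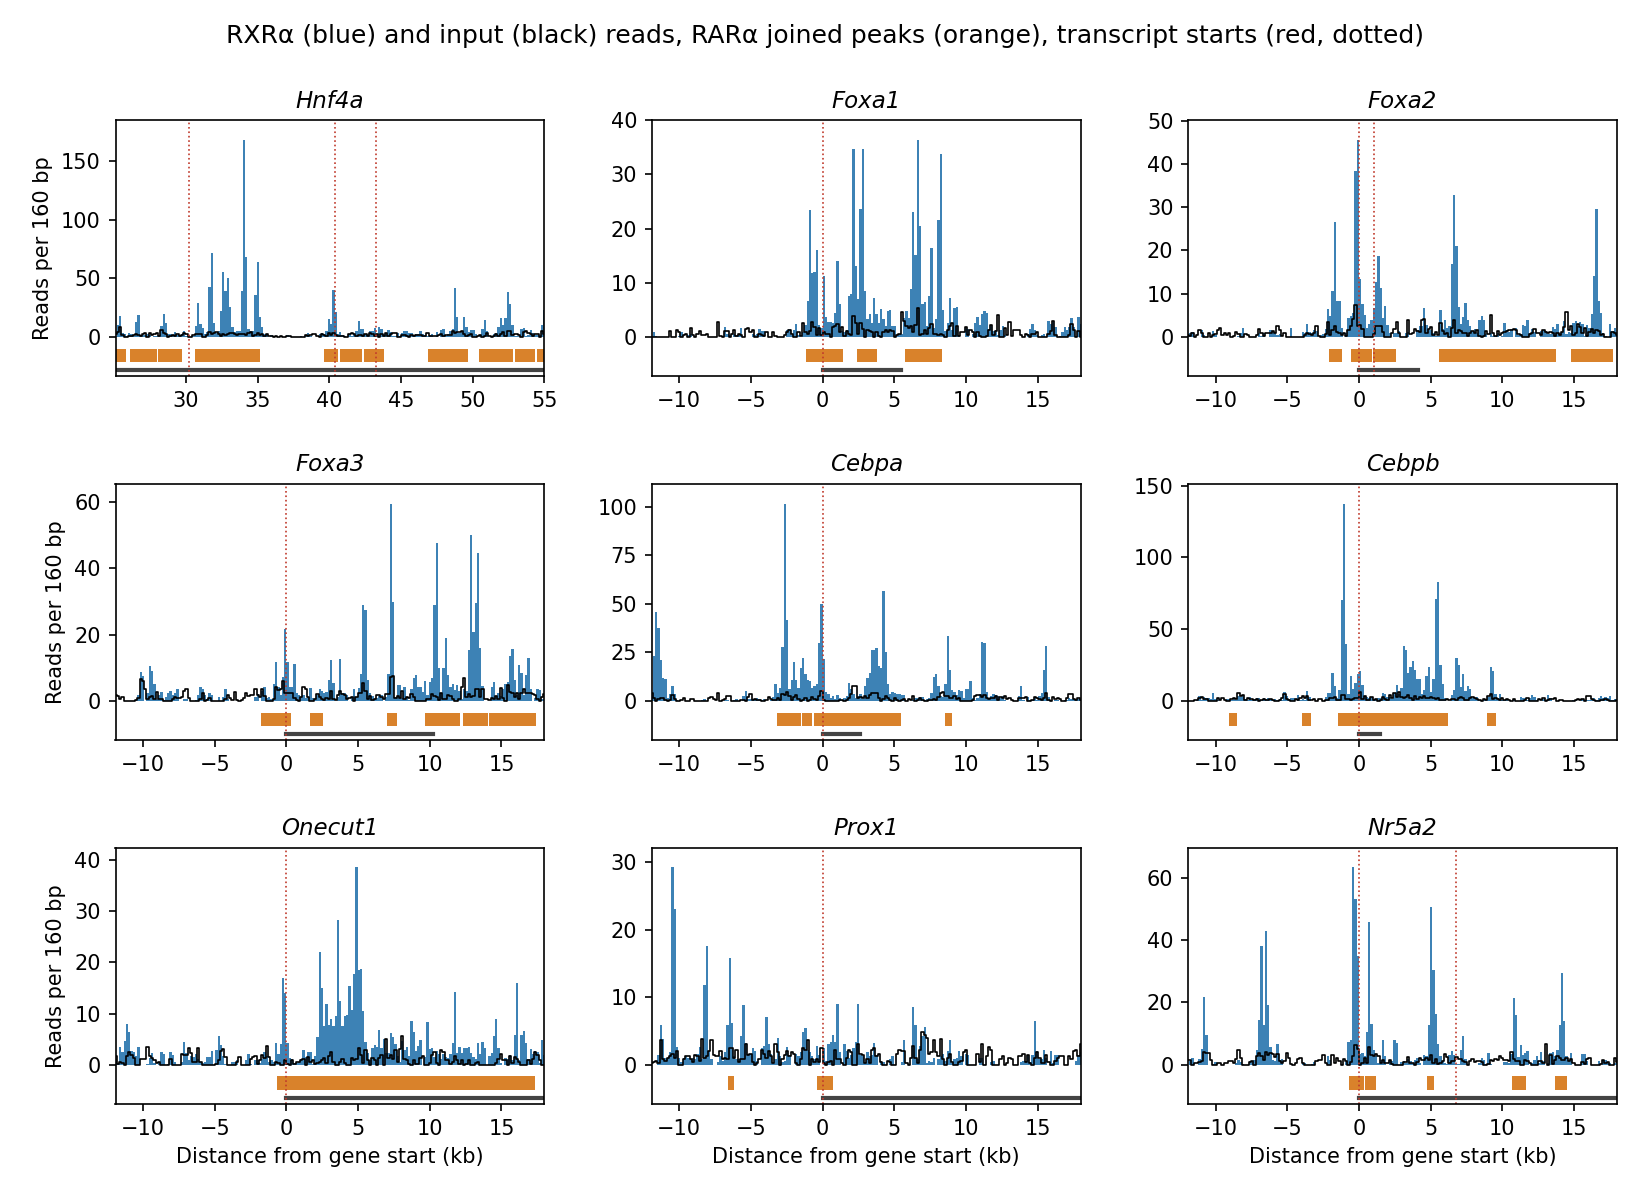
RXRα reads (blue) and input reads (black) in steps of 160 bp against the distance in kb from the annotated gene start, from 25 to 55 kb for Hnf4a and from -12 to 18 kb for the others, with RARα joined peaks in orange, transcript starts as dotted red lines and the gene body in grey. The vertical scales differ between genes, and RXRα forms narrow summits, many of them within wider RARα blocks and others outside them, as at -11.6 kb of Cebpa and -10.4 kb of Prox1.

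Nr5a2 (ENSMUSG00000026398.8, chr1:138740161-138857004, minus strand), the other nuclear receptor gene of the set, had the most RXRα regions, 15, and 11 RARα joined peaks. Its RARα scores were between 21 and 38, compared to a median of 34 over all joined peaks of the genome. The strongest region (chr1:138822529-138823008) was in an intron 34.4 kb from the start, with 59 RXRα reads over the highest bin compared to 0 of input. Its surrounding 1 kb had 173 RXRα and 11.2 input reads (ratio 15.5, 8.57 to 32.1), and a RARα joined peak of score 25 covered it. The highest RARα score, 38, lay on the next strongest region 44.9 kb from the start. At the promoter there were 165 RXRα and 17.2 input reads (ratio 9.58, 5.88 to 17.1), more RXRα reads than at 99.0% of all gene starts. A RARα joined peak of score 30 touched this window with its summit 779 bp downstream of the start, and another of score 28 had its summit 126 bp upstream. The other annotated start, 6.80 kb downstream, had 21.6 RXRα and 8.8 input reads and no RARα peak of any score. The window around the highest bin of the strongest region, chr1:138822540-138822740 on the plus strand, held a hexamer (left) and a FOXA match (right).
Nr5a2 intron, 34.4 kb: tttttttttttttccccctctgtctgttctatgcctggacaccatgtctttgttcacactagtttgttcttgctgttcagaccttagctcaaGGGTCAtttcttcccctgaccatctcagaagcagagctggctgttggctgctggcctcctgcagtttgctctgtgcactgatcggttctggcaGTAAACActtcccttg

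The 3 FOXA genes differed in where the receptors were bound. Foxa1 (ENSMUSG00000035451.6, chr12:58641618-58647108, minus strand) had 8 regions from 0.908 kb upstream to 8.18 kb downstream of its start, and 7 of them carried a RARα joined peak. Its strongest region (chr12:58638817-58639040) was 2.58 kb beyond the 3′ end of the gene, with 43 RXRα reads over the highest bin compared to 0 of input, and 66.4 compared to 2.6 reads in 1 kb (ratio 25.5, 7.21 to 109). The highest RARα score, 49, was at the start, where there were 40.8 RXRα and 4.8 input reads (ratio 8.50, 3.24 to 26.6). The window of the strongest region, chr12:58638828-58639028 on the plus strand, is shown because it held 3 matches to the HNF6 motif, the motif of the Onecut1 product.
Foxa1 downstream, 8.18 kb: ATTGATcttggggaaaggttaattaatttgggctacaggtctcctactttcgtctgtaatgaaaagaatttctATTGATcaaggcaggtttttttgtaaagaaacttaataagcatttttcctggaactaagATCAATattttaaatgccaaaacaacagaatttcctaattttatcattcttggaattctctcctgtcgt

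Foxa2 (ENSMUSG00000037025.5, chr2:147868613-147872705, minus strand) was the only gene of the set whose strongest region by bin ratio was within 1 kb of its start. This region (chr2:147872801-147872832) was 111 bp upstream, with 56 RXRα reads over the highest bin compared to 1 of input. Its rank rests on a bin ratio of 56.0 compared to 54.8 for the next region, which was taken to the mean input. Over 1 kb its ratio of 5.65 (3.51 to 9.41) was the lowest among the regions of Foxa2, the others having 8.36 and 8.02. The promoter had 117 RXRα reads, but its 19.4 input reads were also higher than at 98.4% of all gene starts, and the ratio was 6.01 (3.77 to 10.6). The other start of Foxa2, 1.02 kb downstream, had 54.0 RXRα and 7.0 input reads (ratio 7.71, 3.50 to 20.1). The highest RARα score, 104, was downstream of the gene, 6.76 kb from the start, in a joined peak of 4080 bp (chr2:147863021-147867100) that carried 1 RXRα region. A RARα joined peak of score 37 at 1.64 kb upstream had no RXRα region although 61.2 RXRα reads fell in it compared to 7.4 of input.

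Foxa3 (ENSMUSG00000040891.5, chr7:19598631-19608887, minus strand) had its highest RARα score and its strongest RXRα regions at separate sites. The highest RARα score, 156, was 32 bp from the start in a joined peak of 2120 bp without a co-localized RXRα region, and 77.0 RXRα reads compared to 30 of input fell in this peak (ratio 2.57). Sympk starts 839 bp away in the opposite direction, so that the RARα peak cannot be assigned to one of the genes. The 4 strongest RXRα regions were downstream, between 10.4 and 13.4 kb from the start, all under RARα joined peaks with scores of 27 or 41, and all nearer to the start of Irf2bp1 than to that of Foxa3. The strongest (chr7:19595873-19596032) had 57 RXRα reads over the highest bin compared to 0 of input, and 158 compared to 14.4 reads in 1 kb (ratio 10.97, 6.53 to 21.1). In an intron, 7.27 kb from the start, a RARα joined peak of score 35 held 99.0 RXRα and 18.0 input reads (ratio 5.50) without reaching the threshold of a region. The window of the strongest region, chr7:19595884-19596084 on the plus strand, held 2 FOXA matches, one on each strand.
Foxa3 downstream, 12.9 kb: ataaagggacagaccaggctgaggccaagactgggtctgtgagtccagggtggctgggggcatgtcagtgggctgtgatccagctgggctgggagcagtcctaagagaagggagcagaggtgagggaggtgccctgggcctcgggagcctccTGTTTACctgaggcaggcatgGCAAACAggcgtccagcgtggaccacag

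The 2 genes of the C/EBP family had the highest RARα scores of the set. Cebpa (ENSMUSG00000034957.9, chr7:35904312-35906945, plus strand) had a score of 268 with the summit 13 bp from its start, which was above 99.97% of all gene promoters. The joined peak was 6090 bp wide (chr7:35903681-35909770) and covered the whole gene. The promoter had 118 RXRα and 8.0 input reads (ratio 14.8, 7.25 to 35.0). The strongest RXRα region (chr7:35901633-35901792) was 2.60 kb upstream, with 113 RXRα reads over the highest bin compared to 1 of input, 194 compared to 13.8 reads in 1 kb (ratio 14.1, 8.06 to 25.8), and a RARα score of 39. High RXRα coverage was not always found with a high RARα score. The region 11.6 kb upstream had 138 RXRα and 10 input reads in 1 kb (ratio 13.8, 7.28 to 29.4), but its RARα score was only 15.

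Cebpb (ENSMUSG00000056501.3, chr2:167514415-167515918, plus strand) had 13 RXRα regions, the most within 20 kb of a start among the 9 genes. Of these, 9 lay under 1 RARα joined peak of 7670 bp (chr2:167512961-167520630) with a score of 216, which held 871 RXRα reads compared to 98.8 of input. The promoter had 74.2 RXRα and 15.6 input reads (ratio 4.76, 2.67 to 8.51). Higher values were found on both sides of it. The region 0.991 kb upstream (chr2:167513121-167513568) had 278 RXRα and 12.0 input reads in 1 kb (ratio 23.1, 13.1 to 45.4), and the strongest region 5.54 kb downstream (chr2:167519649-167520224) had 209 and 8.0 reads (ratio 26.1, 13.02 to 61.3). At 6.82 kb downstream, a region with 91.0 RXRα and 9.8 input reads (ratio 9.29, 4.73 to 19.6) had no RARα peak of any score. A RARα peak of score 122 at 3.56 kb upstream was the reverse case, with 10.6 RXRα and 7.8 input reads. Cebpb overlaps the gene record of Tmem189, which starts 907 bp downstream of the Cebpb start on the opposite strand. The start of Tmem189 was the nearest for 8 of the 13 regions. The RARα joined peak of score 216 covers both starts, so that it cannot be assigned to either gene alone.

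Cebpb held the only regions of the 9 genes with a direct repeat of the hexamer. The first, 3.17 kb from the start (window chr2:167517484-167517684, plus strand), had a repeat with a spacing of 1 base (DR1), the arrangement bound by RXR with PPAR or as a homodimer and by HNF4α. It had 52 RXRα reads over the highest bin compared to 1 of input, and lay under the wide RARα joined peak of score 216. The other, 9.35 kb from the start (window chr2:167523660-167523860, plus strand), had a repeat with a spacing of 2 bases (DR2), which is bound by RXR with RAR. It had 19 RXRα reads over the highest bin compared to 0 of input, and a RARα score of 26. Capitals mark the hexamers, and the repeated pair is separated by the lower case spacer.
Cebpb DR1, 3.17 kb: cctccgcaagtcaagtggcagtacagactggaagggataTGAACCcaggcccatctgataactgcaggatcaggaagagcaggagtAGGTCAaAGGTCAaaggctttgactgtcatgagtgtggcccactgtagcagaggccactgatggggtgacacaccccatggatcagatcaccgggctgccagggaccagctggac
Cebpb DR2, 9.35 kb: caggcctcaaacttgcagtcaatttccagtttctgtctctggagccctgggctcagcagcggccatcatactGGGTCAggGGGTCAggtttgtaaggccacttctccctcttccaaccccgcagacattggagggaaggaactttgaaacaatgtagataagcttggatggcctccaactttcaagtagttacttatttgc

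Onecut1 (ENSMUSG00000043013.7, chr9:74709728-74737591, plus strand) carried the widest RARα joined peak of the set, 17381 bp made of 35 deposited peaks (chr9:74709071-74726451), over its start and 5′ part. It was wider than 99.97% of joined peaks of the genome, and its highest score was 143, 18 bp from the start. This block carried 7 of the 8 RXRα regions of the gene, and the other region was also overlapped by a RARα joined peak. The block held 594 RXRα reads compared to 90.6 of input (ratio 6.56). Within it, 5 RXRα regions were packed between 2.35 and 5.26 kb. The strongest region (chr9:74714465-74714656), in an intron 4.85 kb from the start, had 44 RXRα reads over the highest bin compared to 0 of input, and 123 compared to 8.0 reads in 1 kb (ratio 15.4, 7.56 to 36.4). The promoter had 41.8 RXRα reads and only 2.0 of input, so that its ratio of 20.9 was imprecise (5.46 to 179). The window of the strongest region, chr9:74714476-74714676 on the plus strand, held a FOXA match (left) and an HNF6 match (right), the latter being the motif of the protein that Onecut1 encodes.
Onecut1 intron, 4.85 kb: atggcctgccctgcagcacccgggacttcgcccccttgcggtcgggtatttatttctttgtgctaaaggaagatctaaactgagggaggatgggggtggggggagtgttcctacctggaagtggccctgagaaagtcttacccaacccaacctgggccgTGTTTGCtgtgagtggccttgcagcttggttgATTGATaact

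Prox1 (ENSMUSG00000010175.6, chr1:191945660-191994559, minus strand) had the fewest RARα joined peaks, 3, and 1 co-localized site. Its promoter had 11.4 RXRα and 4.6 input reads, a ratio of 2.48 whose interval included 1 (0.705 to 8.08), and the highest RARα score of the gene, 39, without an RXRα region. RXRα was found elsewhere, at 3 intronic regions between 22.7 and 39.6 kb downstream and at 2 regions 8.11 and 10.4 kb upstream. The region with the highest ratio (chr1:191954881-191954976) had 57 RXRα reads over the highest bin compared to 1 of input and a RARα joined peak of score 23. The region 37.2 kb from the start (chr1:191957121-191957408) had more RXRα reads, 102 over the highest bin compared to 2 of input and 166 compared to 17.4 in 1 kb (ratio 9.56, 5.92 to 17.2), but no RARα peak of any score. The window of the first of these, chr1:191954828-191955028 on the plus strand, held a C/EBP, a FOXA and an HNF6 match in this order.
Prox1 intron, 39.6 kb: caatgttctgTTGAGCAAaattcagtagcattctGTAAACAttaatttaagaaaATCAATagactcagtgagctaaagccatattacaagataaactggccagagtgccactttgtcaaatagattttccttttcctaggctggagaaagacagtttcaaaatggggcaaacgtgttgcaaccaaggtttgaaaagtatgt

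**Figure D3:**
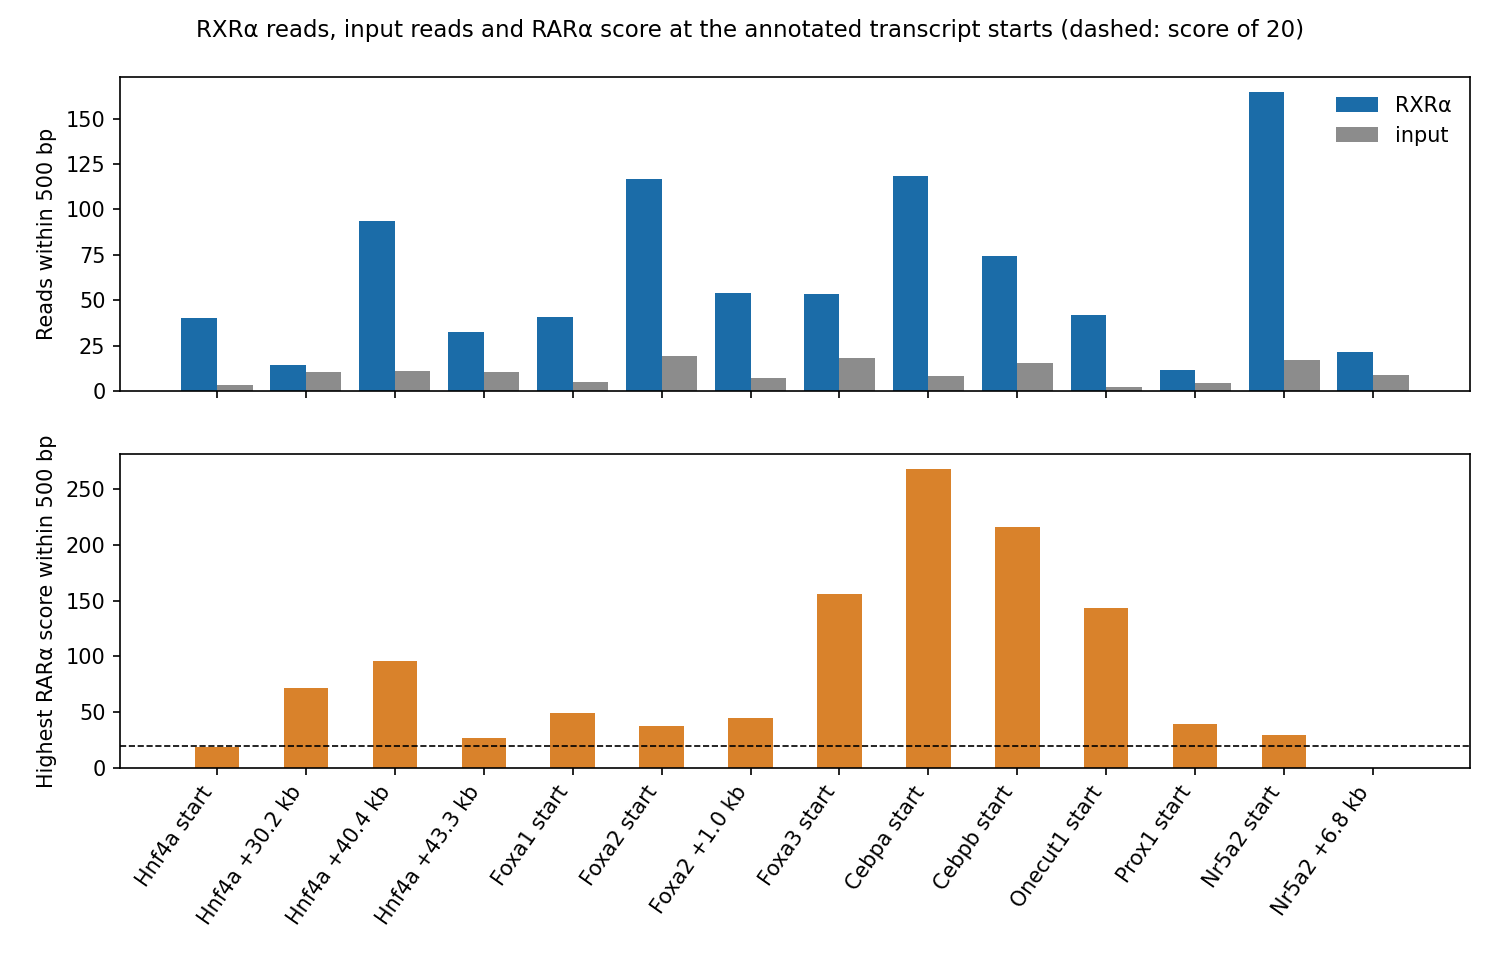
RXRα and input reads within 500 bp of each annotated transcript start (upper panel), 1 bar per library and start. The lower panel gives the highest RARα score of a joined peak touching this window, without the score filter (dashed line at 20). The summit of such a peak can lie outside the window, as for the score of 72 at the 30.2 kb start of Hnf4a (summit at 34.9 kb). RXRα reads are highest at Nr5a2 (165) and RARα scores at Cebpa (268), and the order of the starts differs between the receptors, with Foxa3 at 53.4 reads and a score of 156 and Nr5a2 at 165 reads and a score of 30.

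RXRα and RARα were often found in the same places near these genes. A RARα joined peak overlapped 59 of the 80 RXRα regions (73.8%, 62.7 to 83.0), compared to 31.9% of 31847 regions in the neighbourhoods of all protein-coding genes. With RARα peaks of any score it was 71 of 80 (88.8%, 79.7 to 94.7), compared to 56.6%. Regions of 1 gene share a RARα peak, so they are not independent, and the intervals are too narrow. Within the set the share differed by gene, from 8 of 8 at Onecut1 and 3 of 3 at Foxa2 to 7 of 15 at Nr5a2 and 1 of 5 at Prox1. In the other direction, 31 of 61 RARα joined peaks were co-localized (50.8%, 37.7 to 63.9), compared to 38.5% of 26301 in the genome. Among the 30 that were not, 11 had RXRα reads at least 3 times input.

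The regions of the 9 genes were more numerous per gene, while single regions had similar highest ratios. Their RXRα coverage was not compared with that of other regions. The median of their highest ratio was 34.4, compared to 34.8 over regions near all protein-coding genes, and for 51 of the 80 regions this ratio was taken to the mean input. Per gene, with genes without a region at 0, the median of the highest ratio was 73.0 compared to 24.9 over all genes. That of the highest RARα score, with joined peaks of any score and genes without one at 0, was 104 compared to 34. For such peaks touching the 500 bp on each side of the start, the median highest score was 49 compared to 8. Over single joined peaks the median RARα score was 28, lower than the 34 of all joined peaks, whereas the median width of a RARα joined peak was 1370 bp compared to 670 bp. All 9 strongest RXRα regions, ranked by bin ratio, carried a RARα joined peak, but only 1 of them was within 1 kb of the annotated gene start. By RXRα reads over the highest bin, the first region would differ at Cebpb, Foxa3, Nr5a2 and Prox1. At Cebpb it would be that 0.991 kb upstream of the start (104 compared to 72 reads). At Foxa3 it would be that at 10.4 kb (62 compared to 57), also with a RARα joined peak. At Nr5a2 and Prox1 it would be those at 30.5 kb (81 compared to 59) and 37.2 kb (102 compared to 57), both without a RARα joined peak. The summit of the highest-scoring RARα joined peak was within 1 kb of the start at 6 of 9 genes. By annotation, 36 of the 80 regions were in introns, 38 outside protein-coding genes, 4 in coding exons and 2 in UTRs, with 13 regions within 1 kb of a gene start.

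The promoters also differed in base composition. Within 500 bp of the start, GC content ran from 40.3% at Nr5a2 to 75.8% at Cebpb, with a median of 61.7% compared to 54.7% over all genes. The ratio of observed to expected CpG ran from 0.123 at Nr5a2 to 1.01 at Cebpb, with a median of 0.783 compared to 0.549. The 4 promoters with RARα scores of 143 or more (Cebpa, Cebpb, Foxa3 and Onecut1) had a GC content of 68.8, 75.8, 60.04 and 64.4%. Nr5a2, with the most RXRα reads at its start and a RARα score of 30, had the lowest GC content. Foxa1 (66.0%, score 49) and Prox1 (61.7%, score 39) had a higher GC content than Foxa3. Foxa2 (53.6%, score 38) and Hnf4a (53.6%, score 19) had a lower one. The part of base composition in these values was not tested.

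Exact matches to motifs were searched on both strands in windows that reach 100 bp to each side of the highest bin of each region. The hexamer, searched as AGGTCA or in the forms AGTTCA or GGGTCA or GGTTCA, was found in 40 of 80 windows (50%, 38.6 to 61.4), compared to 64.0% of regions near all genes. Direct repeats of it with a spacing of 1 base were found in 1 window (1.25%, compared to 1.39%) and with 2 bases in 1 (1.25%, compared to 0.637%). For spacings of 3, 4 and 5 bases there were 0 of 80, with an upper bound of 4.51%, compared to 0.270, 0.393 and 0.408% of all regions. The FOXA motif (TGTTTAC or TGTTTGC) was found in 16 windows (20%, 11.9 to 30.4), compared to 12.3%. C/EBP (TTGCNNAA) was found in 10 (12.5%, 6.16 to 21.8), compared to 14.4%, and HNF6 (ATTGAT or ATCGAT) in 7 (8.75%, 3.59 to 17.2), compared to 12.8%. HNF4 (CAAAGTCCA or CAAAGTTCA) and the E-box (CACGTG) were found in 1 window each, compared to 3.34 and 4.92%. Only for the hexamer did the share of all regions lie outside the interval of the 9 genes. The motifs overlap in part, since the form CAAAGTTCA contains AGTTCA and each direct repeat counts as a hexamer too, and regions of 1 gene are not independent. Among the 9 strongest regions, 3 had a hexamer, 4 a FOXA match and 3 an HNF6 match, and those of Foxa2 and Cebpa had none of the motifs searched.

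**Figure D4:**
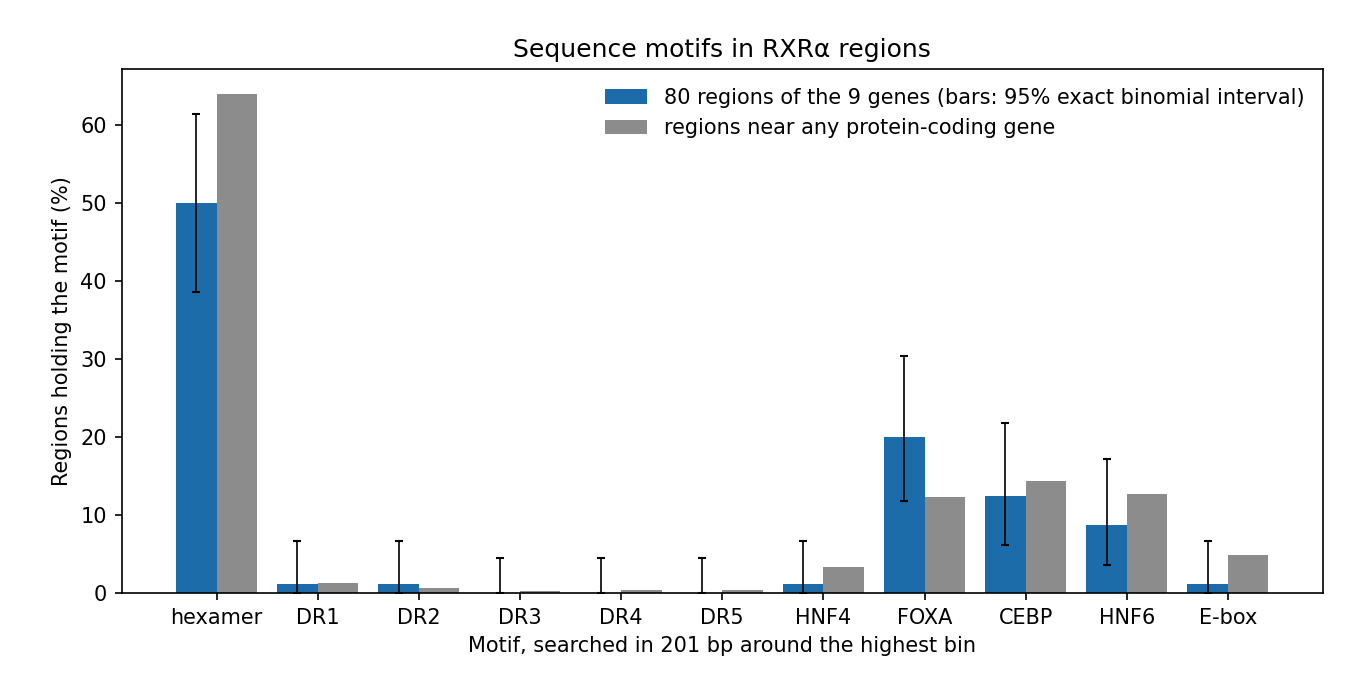
Percent of RXRα regions that hold each motif within 100 bp to each side of the highest bin, for the 80 regions of the 9 genes (blue, with 95% exact binomial intervals) and for the 31847 regions near all protein-coding genes (grey). The hexamer is less frequent and the FOXA motif more frequent in the blue bars, and the grey bar lies inside the interval for all motifs but the hexamer.

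Other transcription factor genes were compared by the same counts. Of 17 other genes for liver transcription factors, 16 had an RXRα region, 14 a RARα joined peak and 13 co-localized binding within 20 kb of the start. The exception for RXRα was Nfib. The genes without a RARα joined peak included Nfib and Gata4, which had both receptors when the gene body was included. Zhx2 had 5 RXRα regions and 2 RARα joined peaks that were not co-localized. The medians of this list were 4 RXRα regions and 2 RARα joined peaks, compared to 7 and 5 for the 9 genes. Its median of the highest RXRα ratio was higher (111 compared to 73.0), and its median of the highest RARα score was lower (74 compared to 104). The 8 hepatocyte marker genes had medians of 6.5 RXRα regions and 5.5 RARα joined peaks, and a median highest RARα score of 203. Such counts were therefore not particular to the 9 genes. Among 18 lineage factor genes of other tissues, such as Myod1 of muscle and Pax6 of the eye and brain, 7 had an RXRα region, 3 a RARα joined peak and 2 co-localized binding, and both medians were 0. The background shares of 50.9, 60.5 and 32.1% for all genes apply to these counts as well. Cdx2, an intestinal factor, stood apart from its list with 6 RXRα regions, 6 RARα joined peaks and 3 co-localized peaks, and Olig2 had 2, 2 and 1. Sox2 had 1 RARα joined peak and no RXRα region.

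**Figure D5:**
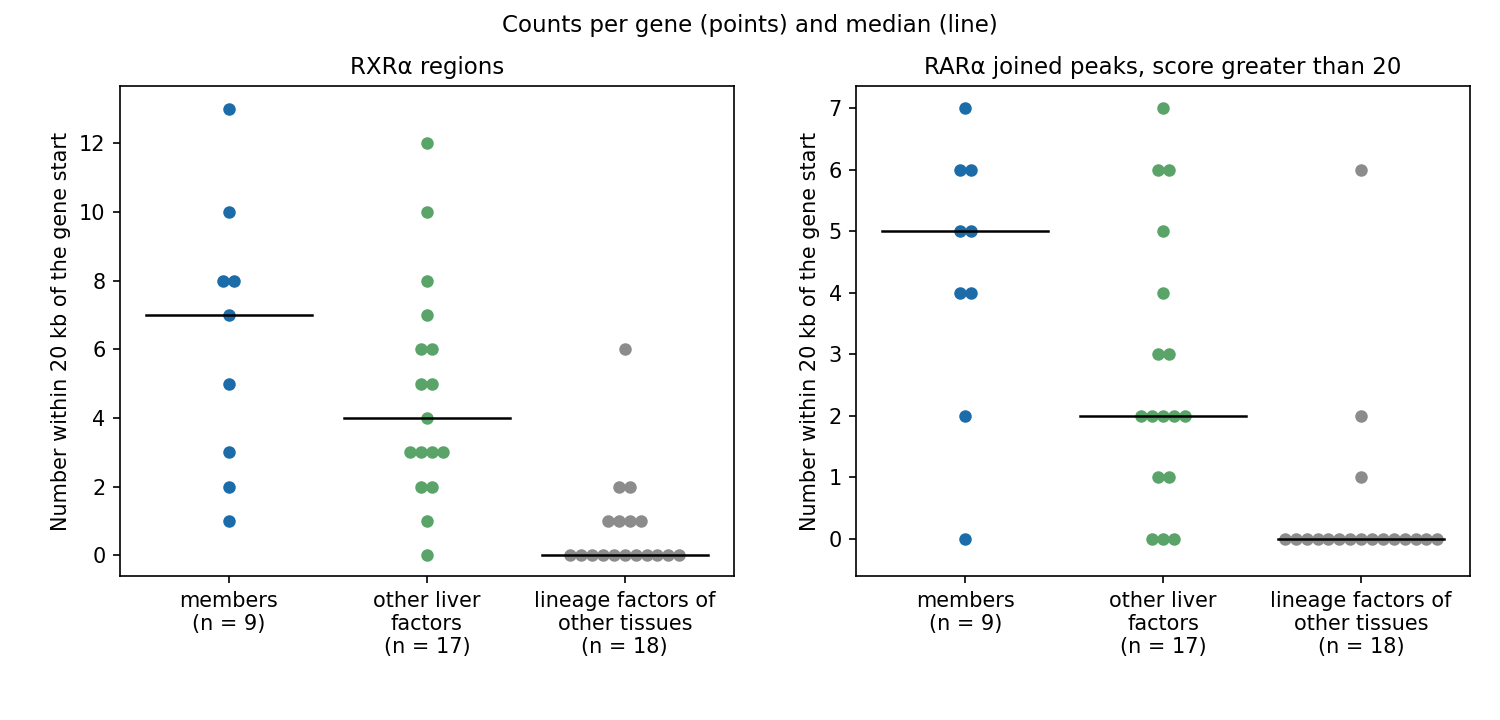
Number of RXRα regions (left) and RARα joined peaks (right) within 20 kb of the gene start for the 9 genes, 17 other liver transcription factor genes and 18 lineage factor genes of other tissues, with each gene as a point and the median as a line. The medians are 7, 4 and 0 for RXRα and 5, 2 and 0 for RARα, and Cdx2 is the grey point at 6 in both panels.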

How the data were processed

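Liver chromatin was sequenced for RXRα, RARα and input, with 1 library each. Per the labels and methods, the authors aligned reads with Bowtie and called peaks with MACS. The methods name mm10 for alignment and mm9 for annotation. The headers of the signal files name mm9, and 0 RARα peaks ran past an mm9 chromosome end, so mm9 was used. The authors deposited the RXRα and input signal as whole-number coverage in 32 bp bins, where 1 read covers 5 bins, and reads are the signal divided by 5. The RXRα signal is labelled as normalized, and the study states more mapped reads for RXRα than this signal holds. The totals given here are therefore those of the deposited signal and not the sequencing depth. Intervals take the deposited reads as counts. The RARα reads were not analysed here. For RARα they deposited a score per peak, and a false discovery rate in percent that was not used as a filter.

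The signals of RXRα and input were brought to a common mean. Bins with RXRα at least 20 times the larger of local and mean input were joined within 200 bp, and ranked by this ratio. Where the highest bin had no input read, the ratio was taken to the mean input of 0.603 per bin. This was the case for 51 of 80 regions, so folds are given over 1 kb around that bin instead. Intervals of ratios are exact conditional binomial ones on reads rounded to whole numbers, and those of shares are Clopper-Pearson at 95%. The highest RARα score of a joined peak was used. The threshold of 20, the RARα score of 20 and the figure of 25% follow the study, whereas taking the overlap over the narrower interval, and joining peaks, are choices made here. The scripts were tested on simulated data. The text names all 9 genes, each with its strongest RXRα region, highest RARα joined peak and start sites over 500 bp apart, list members that differ from their list, except for a gene that is not reported here, and neighbouring genes. Other features were chosen after their values were seen. The genes and lists were chosen with earlier results of these data known. Cebpd and Spi1 were listed but not matched in the annotation. Alternatives covered the thresholds, scaling, joining, overlap and window. Computations used Python 3.11.15, numpy 2.4.6, pandas 2.3.3, scipy 1.17.1 and matplotlib 3.10.9.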

Additional observations from a re-analysis of the deposited data

How the results depend on the processing

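With 1 library per antibody, values describe these libraries, and depth limits each bin, since 51 of the 80 regions had 0 and 22 had 1 input read in the highest bin. No paired analysis was possible because the labels give 1 library per antibody. A RARα score greater than 50 left 6 of 9 genes with a RARα joined peak and 5 with co-localized binding. The 80 RXRα regions became 176 at 10 times input and 52 at 30 times input, and the overlapped share of 73.8% became 59.1 and 84.6%. Without a score filter there were 173 RARα joined peaks and 88.8% of regions were overlapped, and with a score greater than 50 there were 10 and 31.3%. Without joining, 131 RARα peaks overlapped 58.8% of the regions. The 61 RARα joined peaks became 39 when the body beyond 20 kb was left out. In the other 84 combinations of a summary value and an alternative, the values stayed within 1.5 times, or within the interval of the share. Many of these combinations could not move. Settings of RXRα do not enter RARα counts, those of RARα do not enter RXRα counts, and overlap settings enter neither. Leaving out the scaling changed little by design, since its factor was 0.999935. The number that stayed is therefore not a measure of stability. Among the counts of single genes, 88 moved by more than 1.5 times while 344 did not, and many of the latter could not move for the same reason. For example, the 5 RXRα regions of Foxa3 became 18 at 10 times input, 15 with the mean input alone and 1 in the 10 kb window, and the 5 of Prox1 became 18 at 10 times input and 12 with the mean input alone. With a RARα score greater than 50, Foxa1, Prox1 and Nr5a2 had 0 RARα joined peaks. The overlapped share of regions was 73.8% with 1 bp and with 50% of overlap too. Scaling without the mitochondrial chromosome was added after seeing the data and was among these.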
